A study of Saccharomyces cerevisiae with 6 samples.

Results

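The proteasome genes of the wine yeast Saccharomyces cerevisiae were followed on 6 arrays, 3 of strain P5 and 3 of strain P5-EM. They were 36 genes chosen by name out of the 5449 S. cerevisiae genes annotated on the array: 14 subunits of the core particle, 10 genes of the base, 8 of the lid, the transcription factor RPN4, and 3 genes of assembly and activation (UMP1, BLM10 and ECM29). P5 is a commercial wine strain and served as the parental strain. P5-EM is 1 isolate derived from P5, taken from a mixed culture of commercial wine strains that was first treated with ethyl methanesulfonate. That culture was then grown serially in synthetic grape must at 12 °C for 200 generations. The comparison describes that isolate. Each array held RNA from an independent culture. Both strains fermented the same synthetic grape must, SM1, with 2 mg/L of inositol, at 12 °C, and the cells were taken in exponential growth at 96 h. No other temperature or time was hybridised, so an effect of the strain and an effect of the stage each strain had reached by then cannot be told apart.

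The proteasome is the protease that degrades proteins tagged with ubiquitin in the cytosol and nucleus. Its barrel-shaped core particle is built of alpha rings, which gate the entrance, and beta rings, which carry the proteolytic sites. A regulatory particle sits on the barrel: its base holds a ring of ATPases that unfold substrates and push them inwards, and its lid removes the ubiquitin chain. Rpn4 activates the transcription of the subunit genes through a promoter element that many of them share, and is itself a short-lived substrate of the proteasome, which ties transcription to the degradation capacity of the cell.

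Levels are RMA values, that is, log2 of a background-corrected and normalised signal summarised per probe set. A change of 1 on this scale is a 2-fold change, and a difference is always P5-EM minus P5. Each of the 36 genes had a single probe set, and all 36 lay above the background of each array, taken as the 95th percentile of the probe sets for Schizosaccharomyces pombe, a yeast absent from the cultures. Levels belong to single probe sets and are not compared between genes. The array also carries 24 S. pombe probe sets for proteasome genes of that species, which read between 0.57 and 2.96, whereas the S. cerevisiae members read from 6.32 upwards. In RNA of whole cultures, fewer cells that express a gene and less of its RNA per cell cannot be told apart.

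The arrays of P5 were alike (Pearson r across probe sets of 0.992 to 0.996), as were P5-EM replicates 2 and 3 (r = 0.990). P5-EM replicate 1 stood apart, with r of 0.953 to 0.967 against the other P5-EM arrays and 0.923 to 0.930 against P5. It also had the highest background of the 6 arrays (2.59, against 2.28 to 2.40 in the others). Values without it are therefore given beside those over all 6 arrays for each member or median that it moved by more than 1.5 times.

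No proteasome gene passed the test between the strains. By limma, with Benjamini-Hochberg adjustment over 5498 probe sets and a threshold of 0.05 at any fold, 0 of 36 genes were called higher in P5-EM and 0 of 36 lower. Over all probe sets, 6.09% were called higher and 7.78% lower, 13.9% in either direction, and 3.93% were both called and changed at least 2-fold. At an unadjusted p under 0.05, 10 members were lower and 0 higher, against 18.0% of all probe sets lower and 16.4% higher. The methods' t-test called 0 members after adjustment and gave 8 lower and 0 higher without it. Of the 10, 2 belonged to the core (PRE8 and PUP2), 5 to the base (RPT3, RPT5, RPT6, RPN1 and RPN2) and 3 to the lid (RPN5, RPN6 and RPN12).

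The direction of the differences was uneven. The difference was negative for 31 of 36 genes, 86.1%, and positive for 5, namely PRE3, RPN10, UMP1, BLM10 and ECM29. Of all probe sets, 2948 of 5498 were negative, 53.6%. In 19 of the 36 genes all 3 P5-EM arrays lay below all 3 P5 arrays, a share of 52.8% where all probe sets gave 24.6%. In 2 genes, PRE3 and UMP1, they lay above, a share of 5.56% where all probe sets gave 21.1%. The other 15 overlapped. The subunits work in 1 complex and share a regulator, so their directions are not independent observations, and these shares are given as a description.

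**Figure D1:**
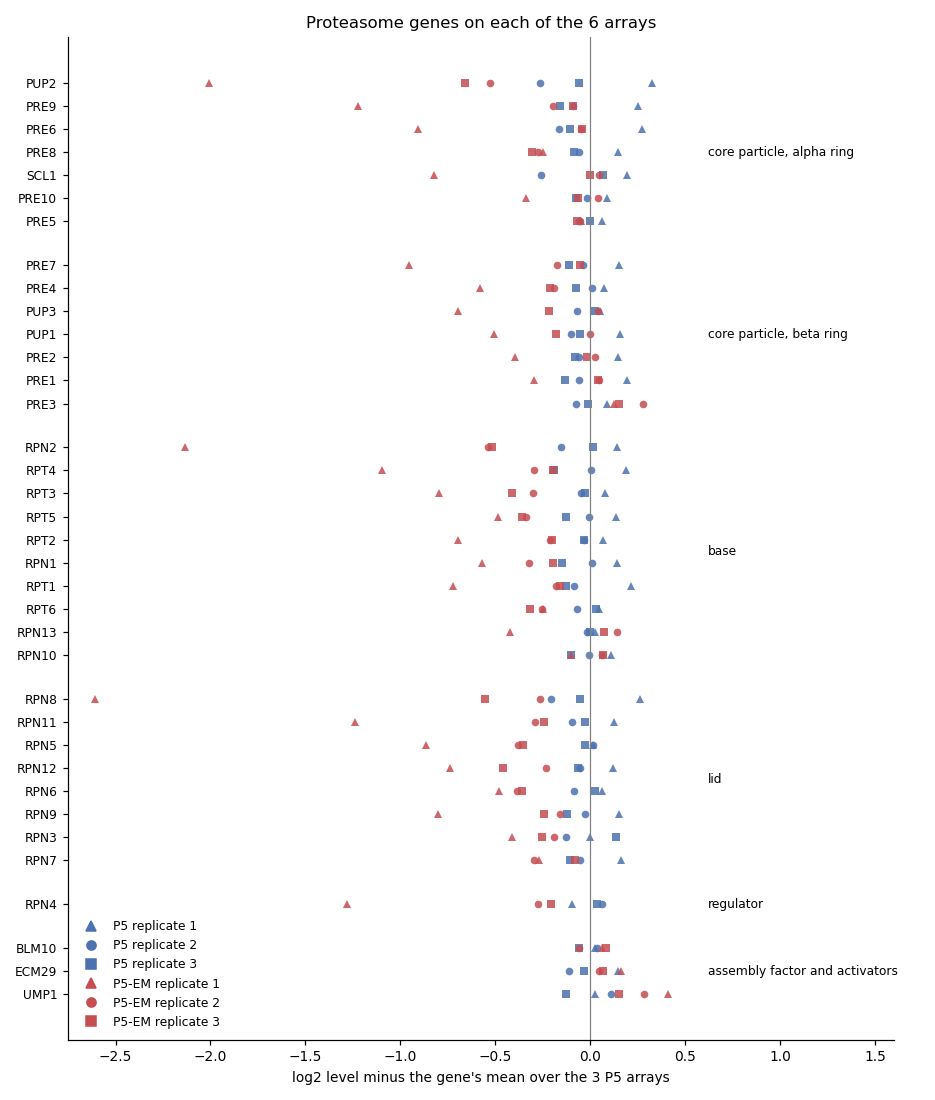
Log2 level of each of the 36 proteasome genes on each of the 6 arrays, given as the difference from that gene's P5 mean (horizontal axis). Genes are in rows by subcomplex, with colour for the strain and marker shape for the replicate. Most of the P5-EM replicate 1 points are below the P5 mean, and 8 of 10 base genes and all 8 lid genes are also below it in P5-EM replicates 2 and 3.

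The medians differed between the parts of the complex. The median difference was -0.27 for the 14 core genes, -0.37 for the 10 base genes and -0.44 for the 8 lid genes, against -0.04 for all probe sets. For the 3 assembly and activation genes it was 0.09, and 0.06 without P5-EM replicate 1. Over all 36 genes the median was -0.33, and without P5-EM replicate 1 it was -0.20, with 9 genes positive. No test of a difference between the parts was made.

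One array carried much of the size of these medians. Relative to the P5 mean, the median of the 36 genes was -0.58 in P5-EM replicate 1, -0.19 in replicate 2 and -0.20 in replicate 3, while the median of all probe sets on the same arrays was -0.09, -0.01 and 0.02. P5-EM replicate 1 was the lowest of the 6 arrays for 27 of the 36 genes, 75%, and for 39.1% of all probe sets. In P5, replicate 1 was the highest of its strain for 31 of the 36 genes, 86.1%, against 44.1% of all probe sets, and lay above the other P5 arrays by a median of 0.19. The part that either array's RNA had in the differences was not tested.

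Without P5-EM replicate 1 the core median was near that of all probe sets and those of the base and lid were not. The core median moved to -0.08, with 4 of its 14 genes positive. By contrast, the base median was -0.25 and the lid median -0.31, with all 8 listed lid genes negative, from -0.41 to -0.19. SEM1, counted here with the partners of the proteasome and not with the lid, moved from -0.54 to -0.08. The median of all probe sets was then 0.01. On P5-EM replicates 2 and 3 the core medians were -0.03 and -0.07, those of the base -0.28 and -0.20, and those of the lid -0.28 and -0.30. Both of these arrays lay below all P5 arrays for 3 of 14 core genes, 8 of 10 base genes and 7 of 8 lid genes, where 29.1% of all probe sets did so.

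**Figure D2:**
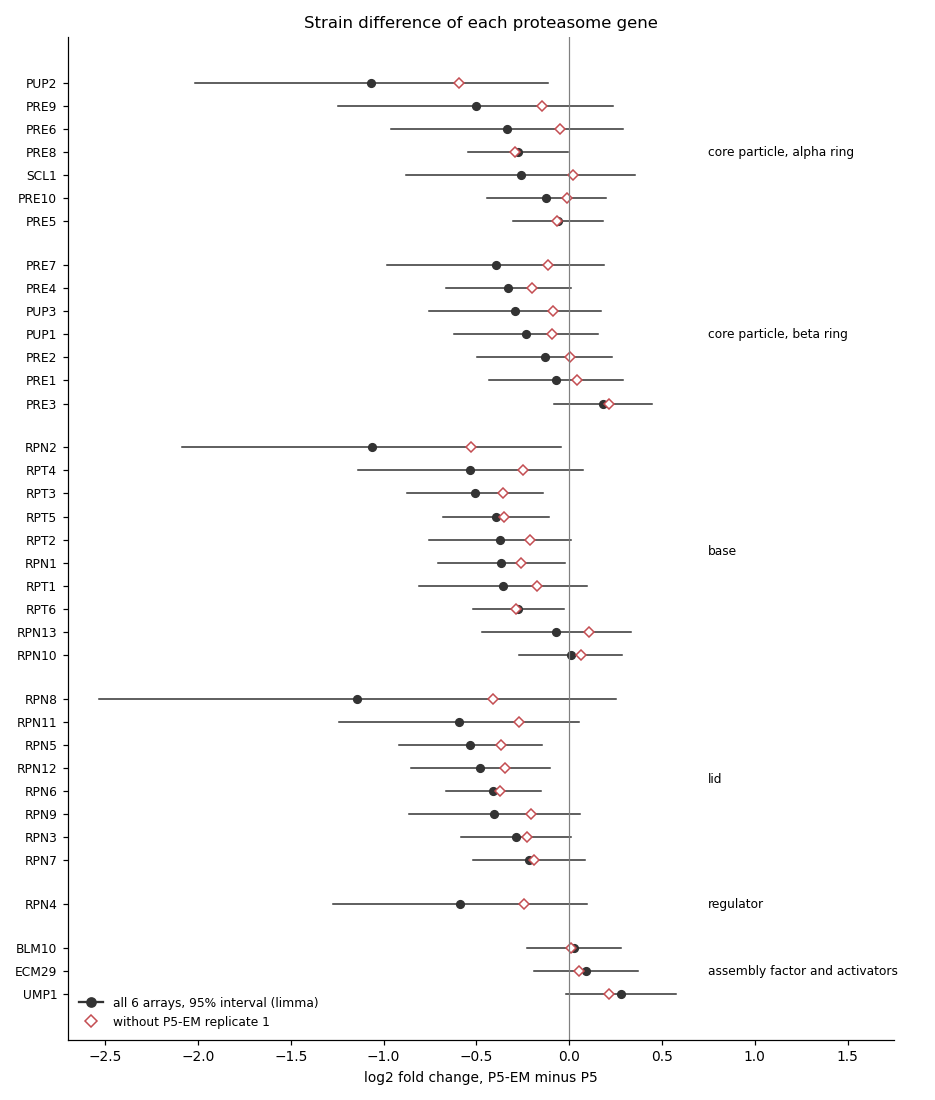
Log2 fold change (P5-EM minus P5) of each of the 36 genes with its 95% confidence interval from limma, 3 arrays per strain, grouped by subcomplex, beside the value without P5-EM replicate 1. Most points lie left of 0 and none passes the threshold, and PUP2, RPN2 and RPN8 have the lowest values and wide intervals.

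RPN4, which encodes the activator of the subunit genes, read 9.35, 9.51 and 9.48 in the 3 P5 arrays and 8.17, 9.17 and 9.24 in P5-EM. All P5-EM values were below all P5 values, but the gap between P5-EM replicate 1 and the other P5-EM arrays was larger than the gap between those and P5. The difference was -0.59 (SE 0.29, 95% interval -1.27 to 0.10) with an adjusted p of 0.194 by limma. Without P5-EM replicate 1 it was -0.24 (adjusted p of 0.138).

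The core particle had the median nearest 0 of the 3 large subcomplexes. Of its 7 alpha-ring genes, all had negative differences (median -0.28), and the 7 beta-ring genes had a median of -0.23 with 1 positive. P5-EM replicate 1 carried most of both medians, which were -0.06 (1 positive) and -0.09 (3 positive) without it. All P5-EM arrays lay below P5 for 3 core genes (PRE8, PUP2 and PRE4), a share of 21.4% where all probe sets gave 24.6%. They lay above it for PRE3, a share of 7.14% where all probe sets gave 21.1%, and overlapped P5 for 10.

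PUP2, an alpha-ring subunit, had the lowest difference of the core. It read 8.85, 8.26 and 8.47 in P5 and 6.52, 8.0 and 7.87 in P5-EM, so the strains did not overlap but P5-EM replicate 1 lay far below its replicates. The difference was -1.07 (SE 0.40, 95% interval -2.02 to -0.12), 2.09-fold lower, with an adjusted p of 0.115, and -0.59 without P5-EM replicate 1. PRE5 had the difference nearest 0 in the alpha ring, with 10.48, 10.36 and 10.41 in P5 and 10.36, 10.36 and 10.34 in P5-EM. These values overlapped and the difference was -0.06 (SE 0.10, 95% interval -0.30 to 0.18, adjusted p of 0.697).

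The other alpha-ring genes divided by how they behaved on P5-EM replicate 1. SCL1 read 10.55, 10.10 and 10.42 in P5 and 9.53, 10.40 and 10.35 in P5-EM, a difference of -0.26 that became 0.02 without P5-EM replicate 1. PRE9, the subunit that yeast can live without, and PRE6 moved likewise from -0.50 to -0.14 and from -0.33 to -0.05. PRE8, by contrast, read 10.17, 9.96 and 9.94 in P5 and 9.77, 9.75 and 9.72 in P5-EM, a narrow and separate pair of groups. Its difference of -0.28 (SE 0.11, adjusted p of 0.139) was -0.29 without that array. PRE10 had a difference of -0.12, and of -0.01 without it.

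Among the beta-ring genes, PRE3, PUP1 and PRE2 encode the subunits with proteolytic activity. PRE3, which carries the caspase-like site, read 10.32, 10.16 and 10.22 in P5 and 10.36, 10.51 and 10.39 in P5-EM. All P5-EM values were above P5, with a difference of 0.18 (SE 0.11, 95% interval -0.08 to 0.45) and an adjusted p of 0.276. PUP1, with the trypsin-like site, and PRE2, with the chymotrypsin-like site, had differences of -0.23 and -0.13 and overlapped. These became -0.09 and 0.004 without P5-EM replicate 1. PRE7, a subunit without a site of its own, was the lowest of the beta ring at -0.40 (SE 0.25, 95% interval -0.98 to 0.19, adjusted p of 0.289). It read 10.30, 10.10 and 10.03 in P5 and 9.19, 9.97 and 10.09 in P5-EM, so that 1 array accounted for most of the difference, which was -0.12 without it. The remaining structural beta subunits gave -0.29 (PUP3), -0.07 (PRE1) and -0.33 (PRE4), and -0.09, 0.04 and -0.20 without that array.

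The base genes read lower in P5-EM on most arrays. In 8 of 10 base genes all P5-EM values lay below all P5 values, where 24.6% of all probe sets did so. The exceptions were RPN10 and RPN13. Both encode ubiquitin receptors. The 8 others encode the ATPases and the scaffolds RPN1 and RPN2, of which Rpn1 also binds ubiquitin. RPN10 read 11.08, 10.97 and 10.87 in P5 and 10.87, 11.03 and 11.04 in P5-EM, a difference of 0.01 (SE 0.12, 95% interval -0.27 to 0.29, adjusted p of 0.965). Without P5-EM replicate 1 it was 0.06. RPN13 had a difference of -0.07, which turned to 0.11 without that array.

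RPN2, a large scaffold to which other subunits attach, had the lowest difference of the base. It read 10.35, 10.06 and 10.22 in P5 and 8.08, 9.67 and 9.69 in P5-EM. The groups were separate on all arrays, and P5-EM replicate 1 lay well under the others. The difference was -1.06 (SE 0.43, 95% interval -2.08 to -0.04), 2.09-fold lower, with an adjusted p of 0.133, and -0.53 without P5-EM replicate 1. RPN1, the other scaffold, had a difference of -0.36 (adjusted p of 0.129).

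The 6 ATPase genes, RPT1 to RPT6, all had negative differences, and in each all P5-EM values lay below all P5 values. The gap was narrow for RPT4 (highest P5-EM value 9.73, lowest P5 value 9.74) and for RPT1 (11.30 and 11.34). RPT5 read 10.91, 10.77 and 10.65 in P5 and 10.29, 10.44 and 10.42 in P5-EM, a difference of -0.40 (SE 0.12, adjusted p of 0.072) that was -0.35 without P5-EM replicate 1. RPT3 read 10.34, 10.21 and 10.23 in P5 and 9.46, 9.96 and 9.85 in P5-EM, a difference of -0.51 (SE 0.15, adjusted p of 0.0727) and of -0.36 without it. In both genes the shift was present on every P5-EM array. The other ATPase genes gave -0.36 (RPT1), -0.37 (RPT2), -0.53 (RPT4) and -0.28 (RPT6), and without P5-EM replicate 1 they gave -0.17, -0.21, -0.25 and -0.29 in the same order. RPT5, RPT3 and the lid genes RPN5 and RPN6 were picked out after their values had been seen.

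The lid genes did so too. All 8 lid genes had negative differences. In 7 of them all P5-EM arrays lay below all P5 arrays, where 24.6% of all probe sets did so. RPN6, whose product forms a clamp between the lid and the core particle, came nearest to the threshold of all 36 genes. It read 9.90, 9.75 and 9.86 in P5 (SD 0.08, n = 3) and 9.36, 9.45 and 9.48 in P5-EM (SD 0.06, n = 3). The strains were well separated and neither had an outlying array. The difference was -0.41 (SE 0.11, 95% interval -0.66 to -0.15), with an adjusted p of 0.0502, and it was -0.37 without P5-EM replicate 1. RPN6 passed the threshold in several alternative fits, which the closing section gives.

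RPN8 had the lowest difference of all 36 genes. Its product pairs with Rpn11, the deubiquitinase of the lid. RPN8 read 9.19, 8.72 and 8.87 in P5 and 6.32, 8.66 and 8.38 in P5-EM, so P5-EM replicate 1 was far below the other 5 arrays. P5-EM replicate 2 was close under the lowest P5 value and replicate 3 was further below it. The difference was -1.14 (SE 0.59, 95% interval -2.54 to 0.25), 2.21-fold lower, with an adjusted p of 0.211, and -0.41 without that array. RPN7, at the other end of the lid, read 10.10, 9.88 and 9.83 in P5 and 9.67, 9.64 and 9.85 in P5-EM. The groups overlapped and the difference was -0.22 (SE 0.13, 95% interval -0.52 to 0.09, adjusted p of 0.266).

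The other lid genes lay between these. RPN5 read 10.80, 10.81 and 10.76 in P5 and 9.92, 10.41 and 10.44 in P5-EM, a difference of -0.53 (SE 0.16, adjusted p of 0.0721). RPN11, the deubiquitinase itself, had a difference of -0.59 and RPN12, the last subunit to join the lid, one of -0.48 (adjusted p of 0.0862). RPN3 and RPN9 gave -0.29 and -0.40. Without P5-EM replicate 1 the difference of RPN11 was -0.27 and that of RPN9 -0.20, while RPN12 was at -0.35, RPN3 at -0.22 and RPN5 at -0.37.

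**Figure D3:**
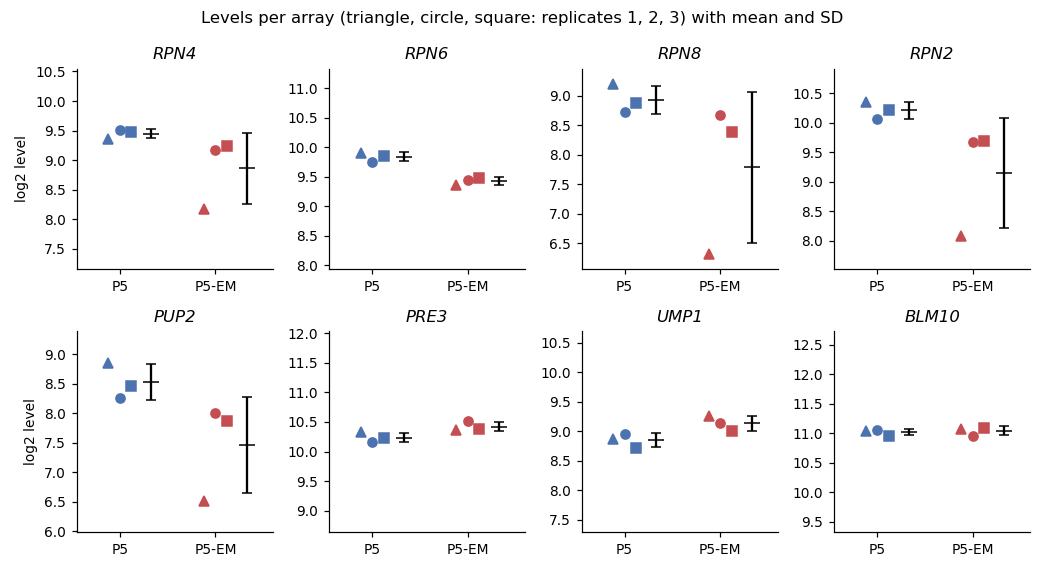
Log2 RMA level on each of the 3 P5 and 3 P5-EM arrays for RPN4, RPN6, RPN8, RPN2, PUP2, PRE3, UMP1 and BLM10, each in a panel that spans the same log2 range, with the mean of each strain. RPN6 has 2 tight and separate groups, while RPN8, RPN2 and PUP2 have 1 P5-EM array far below the rest.

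Changes of at least 2-fold were found in 3 of the 36 members, all of them lower: PUP2, RPN2 and RPN8. Among all probe sets 390 of 5498 changed at least 2-fold in either direction, a share close to that of the members. None of the 3 members was called, and all 3 had P5-EM replicate 1 as their lowest array. When that array was left out, limma called 5 of the 36 genes lower, where it called 14.4% of all probe sets lower. They were PUP2 (-0.59, adjusted p of 0.038), RPT3 (-0.36, adjusted p of 0.0438), RPN2 (-0.53, adjusted p of 0.0177), RPN5 (-0.37, adjusted p of 0.0327) and RPN6 (-0.37, adjusted p of 0.0361). A share of 5 in 36 is close to that background. The subset without the array was looked at because it stood apart, and its calls do not replace those over all 6 arrays.

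The genes of assembly and activation did not share the direction of the subunits. UMP1, the chaperone that helps the core close and is the first substrate of the new core, read 8.88, 8.96 and 8.72 in P5 and 9.26, 9.14 and 9.01 in P5-EM. All P5-EM values were above P5, with a difference of 0.28 (SE 0.13, 95% interval -0.02 to 0.58) and an adjusted p of 0.166. BLM10, an activator that caps the core in place of the regulatory particle, read 11.04, 11.05 and 10.96 in P5 and 11.08, 10.95 and 11.10 in P5-EM. These overlapped, with a difference of 0.03 (SE 0.11, 95% interval -0.23 to 0.28, adjusted p of 0.872). ECM29, which tethers the core to the regulatory particle, had a difference of 0.09 (adjusted p of 0.606). The differences of UMP1, BLM10 and ECM29 were 0.22, 0.01 and 0.06 without P5-EM replicate 1. P5-EM replicate 1 was not the lowest of the arrays for any of these 3 genes.

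Among 96 measured genes around the proteasome (97 were listed, and ATG42 was not matched), 3 were called higher and 5 lower. These are shares of 3.13% and 5.21%, below the 6.09% and 7.78% of all probe sets, so the calls are described gene by gene and not as a change of the pathway. Of the 96, 9 were further assembly chaperones, 7 proteasome partners, 7 regulators of Rpn4, 4 ubiquitin genes, 12 ubiquitin activating or conjugating enzymes, 19 ligases, 18 deubiquitinases, 13 Cdc48 and shuttle factors and 9 vacuolar proteases, with RAD6 and UBR2 in 2 lists each. The median difference of the 96 was -0.14, and -0.07 without P5-EM replicate 1.

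The calls among the chaperones were the 2 partners of 1 dimer. IRC25 and POC4 encode the pair that guides alpha-ring assembly. IRC25 read 7.65, 7.74 and 7.72 in P5 and 8.53, 8.33 and 8.08 in P5-EM, a rise of 0.61 (SE 0.14, adjusted p of 0.0387). POC4 read 6.37, 6.35 and 6.38 in P5 and 7.80, 7.25 and 6.87 in P5-EM, a rise of 0.94 (SE 0.23, adjusted p of 0.0428). The other 7 chaperones were not called. All P5-EM arrays lay above all P5 arrays for 3 of the 9 chaperones (IRC25, POC4 and HSM3), 33.3%, beside 21.1% of all probe sets. They lay below for 2 (PBA1 and NAS2), 22.2%, beside 24.6% of all probe sets. Among the partners, FUB1, which binds the core, read 8.07, 8.23 and 7.94 in P5 and 8.73, 8.61 and 8.53 in P5-EM, a rise of 0.54 (SE 0.13, adjusted p of 0.0397).

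None of the 7 regulators of Rpn4 was called (limma, median difference -0.49, and -0.26 without P5-EM replicate 1). At an unadjusted p under 0.05, 2 were lower, where 18.0% of all probe sets were lower. PDR1 and HSF1, activators of RPN4 transcription, had differences of -0.97 and -0.58, YAP1 one of -0.38 and PDR3 one of 0.31. The remaining regulators, UBR2, MUB1 and RAD6, had differences of -0.22, -0.60 and -0.49. In 6 of the 7 regulators all P5-EM arrays lay below all P5 arrays, a share of 85.7% where all probe sets gave 24.6%. In PDR3 they lay above, as they did in 21.1% of all probe sets. For PDR1 the P5-EM values were 6.0, 7.52 and 7.68 against 8.09, 8.10 and 7.91 in P5, again with P5-EM replicate 1 lowest. Without that array PDR1 was at -0.44 and was called (adjusted p of 0.0298), HSF1 was at -0.41, YAP1 at -0.27 and PDR3 at 0.17, none of these 3 called. UBR2, MUB1 and RAD6 were then at -0.26, -0.25 and -0.16, also not called. The 4 ubiquitin genes were not called either, and 2 were higher at an unadjusted p under 0.05, where 16.4% of all probe sets were higher. UBI4, the polyubiquitin gene, had a difference of -0.13, whereas the ubiquitin fusions to ribosomal proteins gave 1.11 (RPS31, adjusted p of 0.0742), 1.31 (RPL40B, adjusted p of 0.108) and 0.85 (RPL40A). Without P5-EM replicate 1 RPS31 was at 0.78 and was called (adjusted p of 0.0444), and UBI4 was at -0.05. RPL40B was then at 0.80 and RPL40A at 0.36, neither of them called. Relative to the P5 mean, P5-EM replicates 1, 2 and 3 read 1.77, 1.22 and 0.33 for RPS31. They read 2.33, 1.34 and 0.26 for RPL40B and 1.83, 0.84 and -0.11 for RPL40A. The values without replicate 1 therefore rested mostly on replicate 2. RPL40A and RPL40B are near-identical copies, and their probe sets may read both.

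The 5 genes called lower were 1 of 12 activating or conjugating enzymes, 2 of 19 ligases and 2 of 18 deubiquitinases, shares of 8.33%, 10.5% and 11.1% beside the 7.78% of all probe sets. UBP5, a deubiquitinase, read 9.38, 9.40 and 9.42 in P5 and 8.34, 8.12 and 8.16 in P5-EM, a fall of 1.20 on the log2 scale (SE 0.11, adjusted p of 0.00652). UBP3, another deubiquitinase, fell by 0.88 (adjusted p of 0.0443). PSH1, the ligase that limits the centromeric histone, fell by 1.10 (adjusted p of 0.0359), SLX5, part of a ligase that recognises SUMO, by 0.45 (adjusted p of 0.0364), and UBC5, a conjugating enzyme, by 0.48 (adjusted p of 0.0385). The Cdc48 and shuttle factors and the vacuolar proteases had no call by limma (medians -0.24 and 0.12, and -0.16 and 0.11 without P5-EM replicate 1). At an unadjusted p under 0.05, 3 of the 13 Cdc48 and shuttle genes were lower, and of the 9 vacuolar proteases 2 were higher and 1 lower, where all probe sets gave 16.4% higher and 18.0% lower.

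The calls around the proteasome depended on which arrays were kept. All 8 were also made without P5-EM replicate 1, where 6 of the 96 genes were called higher and 12 lower, with 12.2% of all probe sets called higher and 14.4% lower. The 10 further calls included 4 of the 13 Cdc48 and shuttle genes (UFD1, NPL4, CUZ1 and DDI1, all lower). Of the 8, 7 were called without P5-EM replicate 3, where UBC5 was lost (adjusted p of 0.0508). Only UBP5 was called without P5 replicate 1 (adjusted p of 0.0347) or P5-EM replicate 2 (adjusted p of 0.0457), and none of the 8 without P5 replicate 2 or P5 replicate 3, where no probe set of the array was called.

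**Figure D4:**
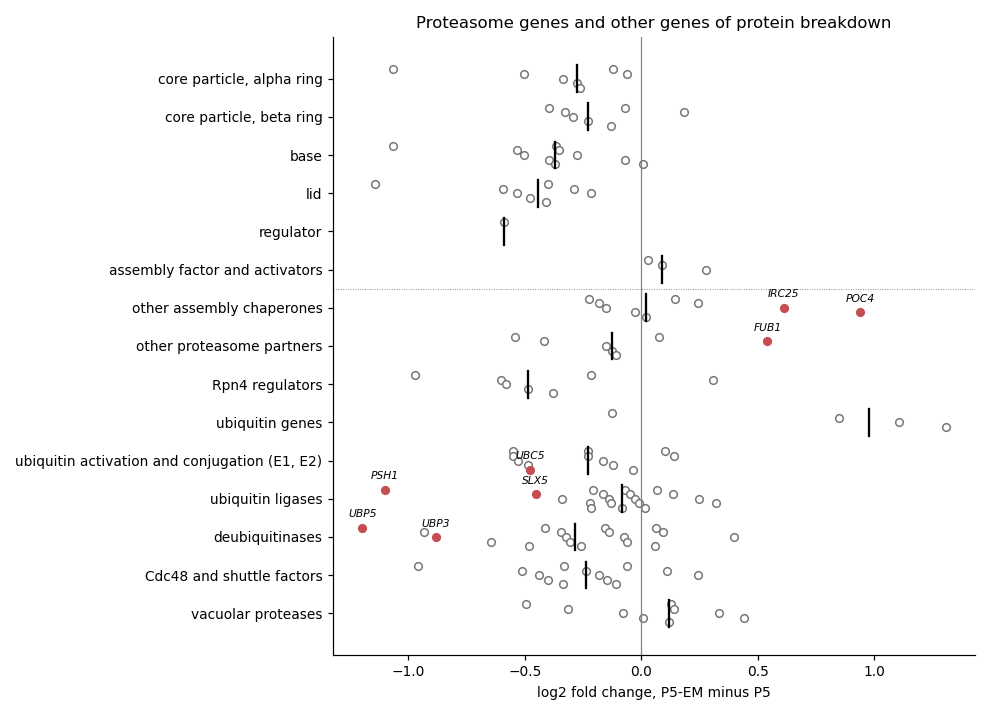
Log2 fold change (P5-EM minus P5) of every measured gene in the proteasome subcomplexes and in the lists of other ubiquitin and proteolysis genes, one point per gene, with the median of each list and called genes marked. Base and lid medians lie at -0.37 and -0.44, and the median of all probe sets is -0.04.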

How the data were processed

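The deposited values were log2 expression estimates per probe set of the Affymetrix Yeast Genome 2.0 array. The authors amplified 25 ng of RNA over 17 cycles, made intensity files with GCOS and ran RMA in Partek, without pooling replicates; the genome build was not given in the sources used here. All 6 columns were used as deposited. The 5498 probe sets annotated to a single S. cerevisiae gene were fitted by limma 3.58.1 in R 4.3.3 (lmFit and eBayes, two-sided, no covariates), after the code had been tested on simulated data. The members and lists were chosen with earlier results of these data known, and PSH1 and UBP5 stand in the study's own gene table from these arrays. By rule, values per array were given for RPN4, for called members and for the highest and lowest member of each list, and, of other lists, up to 4 called genes were named. SCL1, PRE8, RPT1, RPT3, RPT4, RPT5, RPN5, RPN6, PDR1, HSF1, YAP1, PDR3, UBR2, MUB1, RAD6 and the ubiquitin genes were added after their values were seen. The number of arrays limits the precision. Alternatives were other normalizations, tests, filters and weights, a replicate block and the omission of single arrays.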

Additional observations from a re-analysis of the deposited data

How the results depend on the processing

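The count of proteasome genes called lower was 0 over all arrays and lay between 0 and 5 when 1 array was left out. It was 5 without P5-EM replicate 1, where 14.4% of all probe sets were called lower. The count was 2 under quantile normalization and 2 with an intensity trend (RPN6 and RPT5), 1 under median centring and 1 when probe sets under background were left out (RPN6). Over all probe sets these settings called 494, 414, 456 and 431 lower, in the same order. Array weights called 16 members lower and 2 higher (PRE3 and UMP1), where they called 1639 of all 5498 probe sets lower and 1583 higher. They gave medians of 0.028 for the core, -0.25 for the base and -0.23 for the lid, and RPN4 at -0.31 (adjusted p of 0.0142). Those weights were 0.10, 15.3 and 0.40 for P5-EM replicates 1, 2 and 3 and their estimation did not converge, so that mean rests almost on P5-EM replicate 2 alone. With 1 array left out, medians ranged from -0.37 to -0.077 for the core, from -0.45 to -0.25 for the base and from -0.56 to -0.31 for the lid, and RPN4 from -0.78 to -0.24 (adjusted p from 0.109 to 0.369). Without P5 replicate 2 or P5 replicate 3 the lowest adjusted p of any probe set was 0.0574 and 0.0689. Deviations of same-numbered arrays from their strain means correlated at -0.03, -0.28 and -0.02 over all probe sets. Over the 36 members the correlations were -0.47, -0.56 and -0.08. With 3 arrays per strain these values cannot decide whether the replicate numbers pair samples. With a replicate block 0 members were called, RPN4 was -0.59 (adjusted p of 0.168), and of the 8 called genes around the proteasome 1, UBP5, was called (adjusted p of 0.0398). Over all probe sets the block gave 83 higher and 125 lower calls in place of 335 and 428. The t-test over all probe sets gave 61 and 102. Limited to probe sets changed at least 2-fold, as in the methods, it gave 65 and 125.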
